A study of Bos taurus with 15 samples.

Results

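The genes described here are the matrix metalloproteases (MMP), the ADAMTS proteases with their ADAMTS-like relatives, and the tissue inhibitors of metalloproteases (TIMP). They were taken by name from the 6 tables of gene comparisons of the study: every entry present in all 6 tables whose symbol begins with MMP, TIMP, ADAMTS or ADAMTSL followed by a digit. This gave 35 of 13896 genes, namely 14 MMP genes, 15 ADAMTS genes, 2 ADAMTS-like genes and 4 TIMP genes. Total RNA depleted of ribosomal RNA was sequenced from the fat under the skin of the dewlap (neck) of primiparous Holstein cows. There were 15 libraries, 3 in each of 5 groups. The prepartum group was biopsied one month before calving (-4 weeks peripartum, wkpp), before the feeding experiment began. The other groups were sampled at 1 and 16 wkpp from cows kept since one month before calving on an LE (low energy) or an HE (high energy) diet. The study names its groups by energy balance at 1 wkpp, as severe or moderate negative energy balance (SNEB and MNEB), while the labels name diets. LE is taken here as SNEB and HE as MNEB, a match that the study's methods do not state. Sequencing used 3 cows per energy balance group, those with the most extreme balance at 1 wkpp, and the values used here are known by group but not by cow.

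MMPs are zinc-dependent enzymes that cut proteins of the extracellular matrix, and most are made as inactive precursors. MMP14 sits in the cell membrane and, together with TIMP2, activates the gelatinase MMP2 at the cell surface. The ADAMTS enzymes are secreted proteases with thrombospondin repeats, and several of them cut proteoglycans such as versican and aggrecan. In fat, matrix turnover accompanies the growth and shrinkage of adipocytes and of the vessels around them.

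The 6 MNEB libraries were the shallowest on exons, with 2030340 to 7536139 reads. SNEB libraries held 10989917 to 14755332 and prepartum libraries 8280365 to 14355812. By the study's alignment summary, MNEB libraries were sequenced to a similar total, but each had a lower share of uniquely mapped reads than the other libraries. Synthetic spike-in RNAs took 2.81 to 19.1% of the exonic reads in MNEB libraries and 0.179 to 1.52% in the other 9. Depth, mapped share and spike-in share thus cannot be told apart from diet. Within a group the libraries are called a, b and c from the largest to the smallest size factor (the scale that makes libraries comparable), and a letter shared by 2 groups does not mean a shared cow. Library b of SNEB at 1 wkpp stood apart. Over 11126 genes its Spearman rho was 0.985 with SNEB library c at 16 wkpp, but 0.952 and 0.966 with the other libraries of its own group. Library a of MNEB at 1 wkpp was likewise closer to an MNEB library at 16 wkpp (0.958) than to its own group (0.938 and 0.94). The same held for prepartum library b, at 0.981 with library b of SNEB at 1 wkpp and 0.969 and 0.97 with its own group, and for SNEB library c at 16 wkpp, whose own group had 0.974 and 0.976 against the 0.985 above. The adipocyte list (6 of 7 markers in the tables, ADIPOQ not being analysed here) was expressed in every library, with summed exonic normalised counts of 10076 to 88095. The skeletal muscle list (8 of 9 markers in the tables) summed to 1188 to 4116 in MNEB and to 97.7 to 364 in the other groups.

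Of the 35 genes, 5 were called in at least 1 of the 6 comparisons, a call being an adjusted p below 0.01 with the same sign in both the exonic and the whole gene analysis (limma voom, Benjamini-Hochberg over all genes tested). At 16 wkpp, 4 of 28 members tested differed between the energy balance groups, where 3.5% of all genes were called. *MMP2*, *MMP14* and *TIMP2* were higher in SNEB (1.01% of all genes were called higher) and *ADAMTS10* was lower (2.49% of all genes). Between prepartum and MNEB at 1 wkpp, 2 of 30 members were called against 1.44% of all genes. *ADAMTS2* was higher in prepartum (0.859% of all genes) and *ADAMTS10* lower (0.581% of all genes).

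The other 4 comparisons called 0 members. Prepartum against SNEB at 1 wkpp called 0 of 28 (all genes 0.0362%, all of them higher in prepartum, and 0% lower). MNEB at 1 against 16 wkpp called 0 of 28, SNEB at 1 against 16 wkpp 0 of 29 and SNEB against MNEB at 1 wkpp 0 of 30, and each of these called 0% of all genes. At an unadjusted p below 0.05 in the exonic analysis these comparisons held 14, 6, 4 and 14 members. These were 50%, 21.4%, 13.8% and 46.7% of the members tested, against 14.6%, 12.9%, 7.12% and 30.8% of all genes. Limma with a mean-variance trend in place of voom also called 0 members in each, with 0.208% (pseudocount 1) and 0.0815% (pseudocount 5) of all genes called for prepartum against SNEB at 1 wkpp and 0% in the other 3. The difference between diets in the change from 1 to 16 weeks was tested as an interaction over 12 libraries. It called 0 of 30 members and 0% of all genes. At an unadjusted p below 0.05 it held 0 members against 4.81% of all genes. This fit and those of 1 against 16 wkpp treated libraries as independent, although the study biopsied each animal at both weeks. The median log2 fold change of the members was 0.56 for SNEB over MNEB at 16 wkpp, where all genes had 0.03. It was 0.12 for prepartum over MNEB at 1 wkpp and 0.29 for prepartum over SNEB at 1 wkpp, where all genes had 0.02 and -0.02. The prepartum libraries serve in both of these comparisons, which are therefore not independent. Groups without overlap were frequent among all genes. On exonic and whole gene levels alike, 14.5% of all genes separated SNEB above MNEB at 16 wkpp and 15.6% below. These shares were 12% and 13.4% at 1 wkpp. Prepartum lay above MNEB at 1 wkpp for 14.1% and below for 15.2%, and above SNEB at 1 wkpp for 6.54% and below for 5.14%. For 1 against 16 wkpp they were 4.94% and 6.76% in MNEB, and 4.86% and 2.08% in SNEB.

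**Figure D1:**
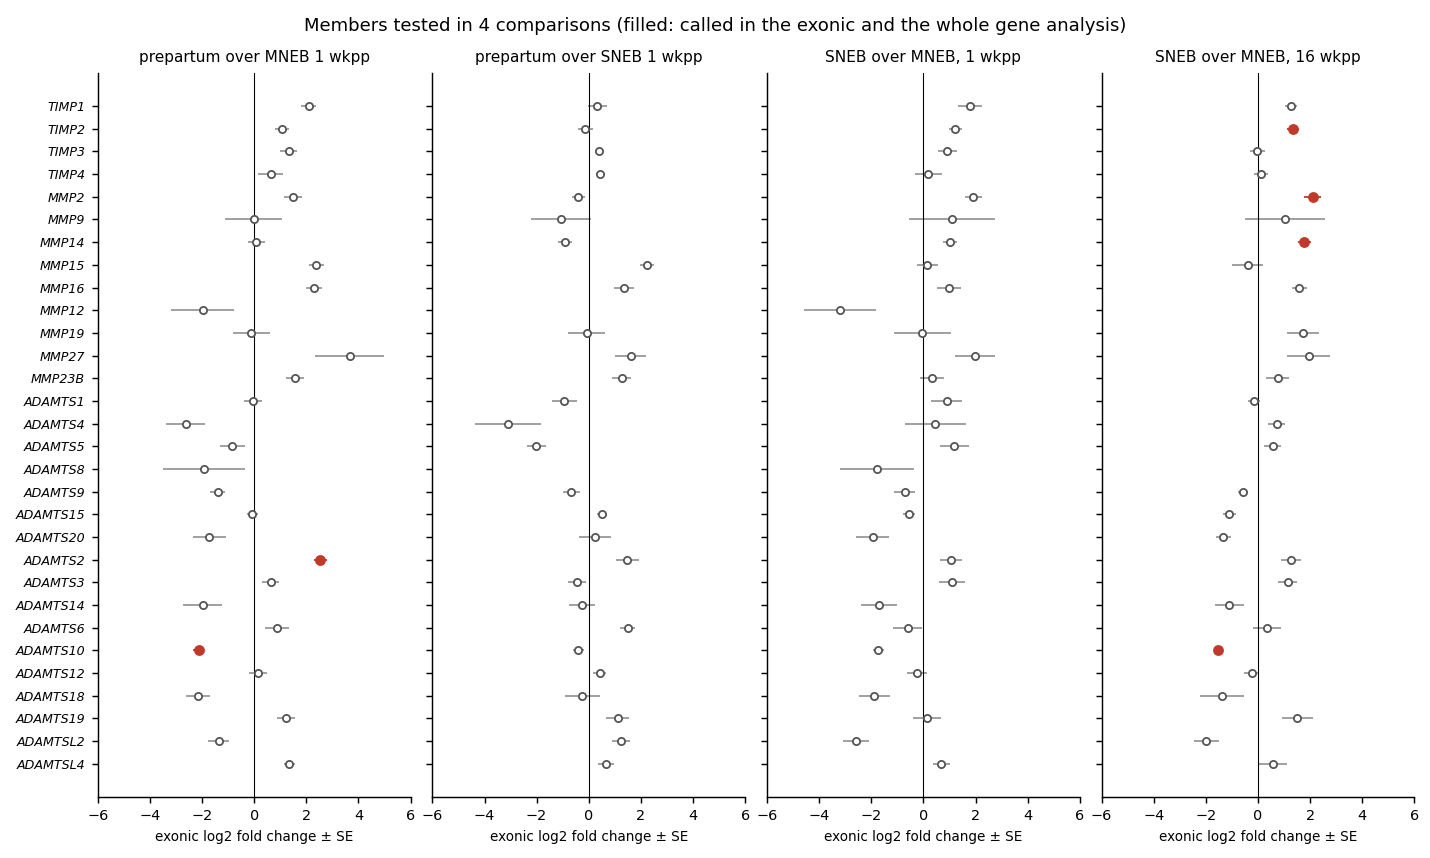
Exonic log2 fold change of each member tested (points, with the standard error as bars) in 4 comparisons, first group over second. Filled red points are the members called in both analyses: ADAMTS2 (2.53) and ADAMTS10 (-2.13) in prepartum over MNEB at 1 wkpp, and MMP2 (2.09), MMP14 (1.78), TIMP2 (1.34) and ADAMTS10 (-1.53) in SNEB over MNEB at 16 wkpp.

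Among the inhibitors, *TIMP2*, which both blocks MMPs and takes part in the activation of MMP2, was the one called. Levels are exonic normalised counts, that is, exonic reads divided by the size factor of the library, and are compared within a gene only, since exon lengths were not used. At 16 wkpp *TIMP2* stood at 5022, 5515 and 4057 in SNEB libraries a, b and c, and at 1452, 2049.7 and 2284.5 in those of MNEB. Every SNEB library was above every MNEB library. The log2 fold change was 1.34 (SE 0.23), with adjusted p = 0.00405 on exons and 0.0096 on the whole gene. At 1 wkpp, SNEB libraries held 5986, 6268 and 3780.4 and MNEB libraries 2252.5, 1927 and 2636. These groups did not overlap either, with a log2 fold change of 1.23 (SE 0.25), but the adjusted p of 0.0154 on exons and 0.0622 on the whole gene missed the threshold. The prepartum libraries (5188, 6264 and 3283) overlapped those of SNEB and lay above each MNEB library on exons, but at 1 wkpp not on the whole gene. In bulk tissue, for this and all other genes, fewer cells of a type and less RNA per cell cannot be told apart.

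*TIMP1*, a secreted inhibitor that acts on most MMPs, had its lowest levels in MNEB at 1 wkpp: 214, 157 and 306 in libraries a, b and c. It stood at 515, 325 and 449 in MNEB at 16 wkpp, and the groups did not overlap, although the difference missed the threshold (adjusted p = 0.267 on exons, and 0.336 on the whole gene with a log2 fold change of -1.13). In SNEB it stood at 879.9, 1131 and 385 at 1 wkpp and at 1372, 844 and 1004 at 16 wkpp. Each SNEB library was thus above each MNEB library of the same week, with a log2 fold change of 1.78 (SE 0.45) at 1 wkpp and adjusted p = 0.0304 on exons and 0.18 on the whole gene. The prepartum libraries held 996, 1089.8 and 699.8. On exons alone the adjusted p was 7.24e-04 for prepartum over MNEB at 1 wkpp (log2 fold change 2.10, SE 0.29) and 0.00639 for SNEB over MNEB at 16 wkpp (1.27, SE 0.24). The whole gene analysis gave 0.0342 and 0.0245, so *TIMP1* was called in neither.

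*TIMP3*, which binds to the matrix and also inhibits ADAMTS enzymes, was low in 2 libraries of 1 group. MNEB at 1 wkpp held 5089, 2029.9 and 2112 exonic normalised counts. All the other 12 libraries lay between 4804 and 10859, the highest being library a of MNEB at 16 wkpp. MNEB at 1 over 16 wkpp had a log2 fold change of -1.55 (SE 0.39, adjusted p = 0.248). *TIMP4*, the inhibitor best known from heart and fat, had its highest level in library a of MNEB at 1 wkpp (3018), while the other 2 libraries of that group held 811 and 624. In SNEB it stood at 1239, 1359 and 1451 at 1 wkpp and at 720.0, 1104 and 1092 at 16 wkpp, without overlap (log2 fold change 0.48, SE 0.20, adjusted p = 0.692). Only 37.1% of the reads on *TIMP3* were exonic, against 98.2% for *TIMP1*. *TIMP1*, *TIMP3* and *TIMP4* overlap the synapsin genes *SYN1*, *SYN3* and *SYN2* in the RefSeq annotation (ARS-UCD2.0), and the sources used here do not state whether reads were counted by strand. *SYN1* and *SYN3* held 147 and 377 exonic reads over all libraries, and *SYN2* had no value here.

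**Figure D2:**
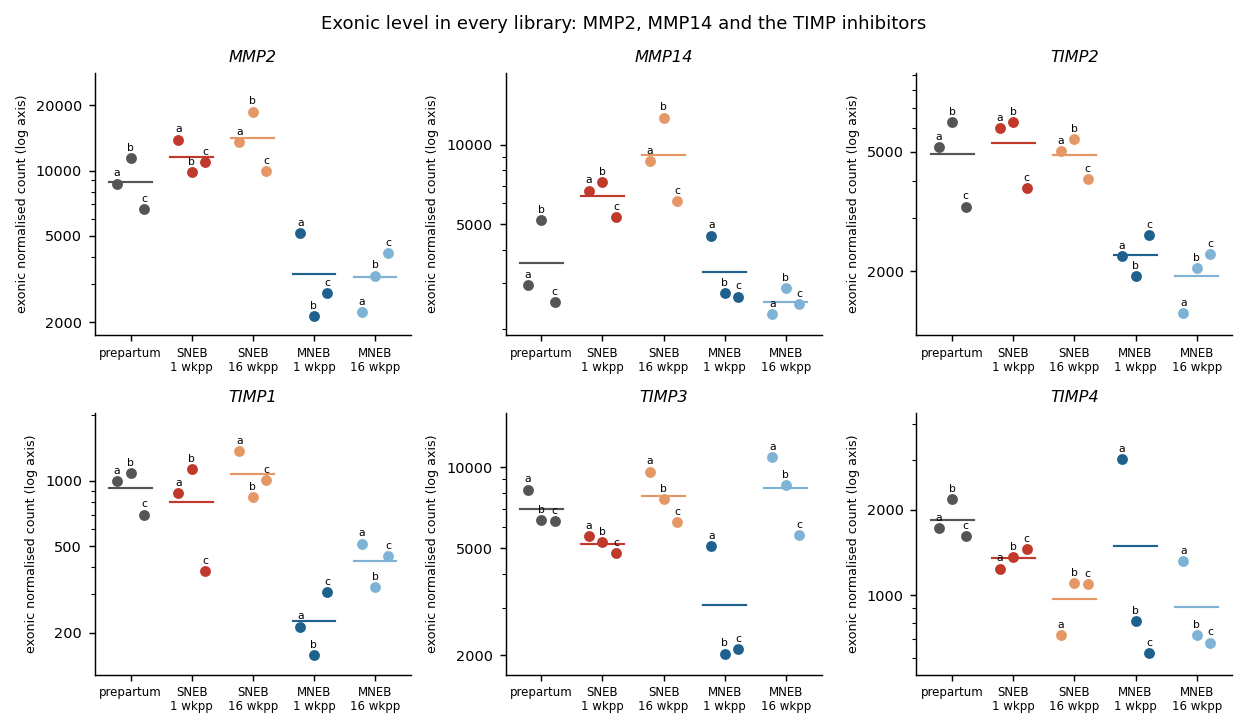
Exonic normalised counts (log axis) of MMP2, MMP14 and the 4 TIMP genes in each of the 15 libraries, by group, with library letters and the group mean as a line. At 16 wkpp the SNEB libraries lie above all MNEB libraries for MMP2, MMP14, TIMP2 and TIMP1, while TIMP3 and TIMP4 overlap. Of all genes, 14.5% separate in this direction on both exonic and whole gene levels.

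*MMP2*, the gelatinase that degrades denatured collagen and basement membrane collagen, had the most exonic reads of the members (183713 over all libraries). SNEB libraries a, b and c held 13565, 18668 and 9948 exonic normalised counts at 16 wkpp, whereas MNEB held 2227, 3273 and 4156. The means were 14060.3 ± 4381 (SD, n = 3) and 3219 ± 965 (SD, n = 3). Limma voom gave a log2 fold change of 2.09 (SE 0.31), with adjusted p = 0.00218 on exons and 0.00928 on the whole gene. At 1 wkpp SNEB held 13888, 9869 and 10941 and MNEB 5152, 2133 and 2724, again without overlap. The log2 fold change of 1.91 (SE 0.33) had an adjusted p of 0.0105 on exons and 0.071 on the whole gene and was not called. Prepartum libraries held 8701, 11374 and 6617. They lay above each MNEB library on exons, but at 1 wkpp not on the whole gene. The log2 fold change over MNEB at 1 wkpp was 1.50 (SE 0.34, adjusted p = 0.00835 on exons and 0.107 on the whole gene). The interval between 1 and 16 wkpp brought a log2 fold change of -0.05 (SE 0.35) in MNEB and -0.27 (SE 0.26) in SNEB, neither of which passed.

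*MMP14*, the membrane-type protease that activates MMP2, followed another order over the groups. SNEB libraries held 8674, 12658 and 6124 exonic normalised counts at 16 wkpp and MNEB libraries 2277, 2868 and 2499. The log2 fold change was 1.78 (SE 0.25), with adjusted p = 0.00191 on exons and 0.00873 on the whole gene. At 1 wkpp SNEB held 6694, 7208.5 and 5314 and MNEB 4527, 2744 and 2658, with a log2 fold change of 1.01 (SE 0.26, adjusted p = 0.0347). Unlike for *MMP2*, the prepartum libraries (2949, 5173 and 2537) lay below each SNEB library at either week on exons and overlapped the MNEB libraries. At 1 wkpp this separation from SNEB did not hold on the whole gene. The log2 fold change of prepartum was 0.09 (SE 0.31) over MNEB at 1 wkpp and -0.91 (SE 0.27, adjusted p = 0.158) over SNEB at 1 wkpp. *MMP14* overlaps *RBM23* in the RefSeq annotation, a gene with 13211 exonic reads over all libraries.

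Leaving out any 1 of the 6 libraries at 16 wkpp ended all 4 calls of that week, while the share of all genes called fell from 3.5% to between 0.322 and 1.04%. The larger adjusted p of both analyses was then 0.014 to 0.0337, and the directions held. With no filter on low counts, the adjusted p of *MMP2*, *MMP14* and *TIMP2* was 0.0126, 0.0122 and 0.0129, and in 1 fit of all 15 libraries that of *MMP14* and *TIMP2* was 0.0137 and 0.0105, which ended these calls.

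For the 3 genes called higher in SNEB at 16 wkpp, the summed levels of marker lists differed as well. The fibroblast list (7 of 7 markers in the tables) summed to 52081 to 86611 in MNEB at 16 wkpp and to 159974 to 536086 in SNEB. The macrophage list (5 of 6) summed to 1978.5 to 2279 and 10496 to 13769, the mast cell list (3 of 4) to 248 to 457 and 2009.5 to 2489, and the skeletal muscle list to 1710.3 to 3821 and 242 to 346. The smooth muscle list (5 of 5) summed to 19853 to 65974 in MNEB and 4502 to 16032 in SNEB. The adipocyte list summed to 10076 to 40678 and 41965 to 48520. Only 4 of the 6 adipocyte markers tested had a positive log2 fold change for SNEB over MNEB, and 0 were called. All 6 lists were without overlap between these groups. The neutrophil list (95.3 to 193 in MNEB and 159 to 570 in SNEB), the endothelium list and the keratinocyte and hair list overlapped. In these 2 groups no marker of those lists was at 0 in all libraries of a group. The part of these cells in the result was not tested.

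The reads of a protease per read of its inhibitor in the same library do not depend on the size factors. With *TIMP2* as denominator, *MMP14* gave 0.568 to 0.826 exonic reads per read in prepartum libraries, 1.12 to 1.41 in SNEB at 1 wkpp and 1.51 to 2.3 in SNEB at 16 wkpp, so that these 3 groups did not overlap. MNEB had 1.01 to 2.01 at 1 wkpp and 1.09 to 1.57 at 16 wkpp. *MMP2* gave 2.45 to 3.38 reads per read of *TIMP2* in SNEB at 16 wkpp, above each MNEB library at either week (1.03 to 2.29) and each prepartum library (1.68 to 2.02), but overlapping SNEB at 1 wkpp (1.57 to 2.89). Per read of *TIMP3*, *MMP2* had 0.205 to 0.742 in MNEB at 16 wkpp, below each of the other 12 libraries, which began at 1.01. These ratios are descriptions, with no test.

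**Figure D3:**
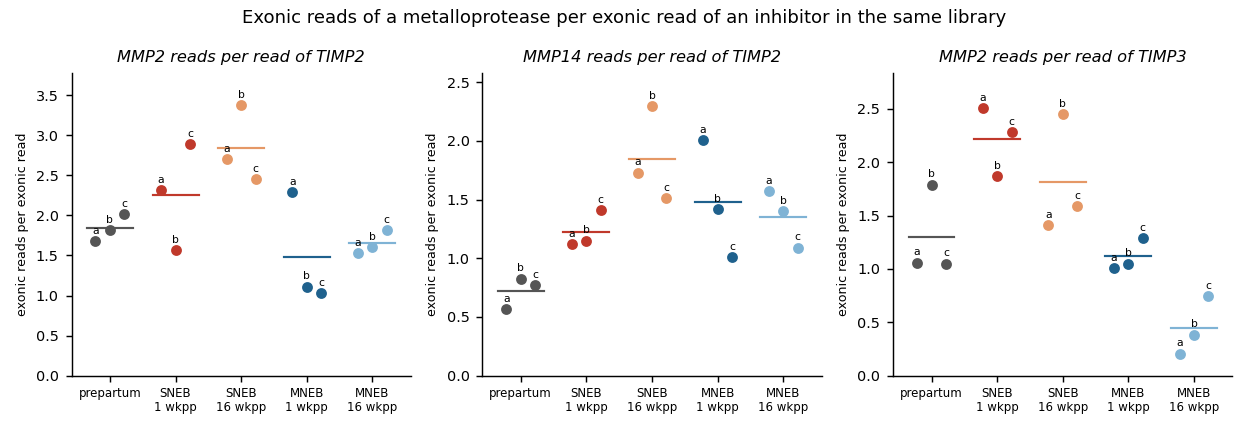
Exonic reads of MMP2 or MMP14 per exonic read of TIMP2 or TIMP3 in the same library (linear axis from 0), by group, with library letters and the group mean as a line. MMP14 per TIMP2 read lies at 0.568 to 0.826 in prepartum libraries and at 1.51 to 2.3 in SNEB at 16 wkpp, and MMP2 per TIMP3 read has its lowest values, 0.205 to 0.742, in MNEB at 16 wkpp.

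*MMP15* and *MMP16*, the other membrane-type proteases in the tables, had their highest group means before calving. *MMP15* held 569, 640.3 and 587 exonic normalised counts in prepartum libraries a, b and c. In the 12 libraries after calving it held between 38.7 and 181, far below each prepartum library. Limma voom gave a log2 fold change of 2.24 (SE 0.26) over SNEB at 1 wkpp and 2.38 (SE 0.29) over MNEB at 1 wkpp. The adjusted p on exons was 0.00625 and 3.72e-04, but on the whole gene it was 0.0388 and 0.018, so *MMP15* was not called. The keratinocyte and hair list (5 of 5 markers in the tables) summed to 173 to 613 in prepartum libraries, 6.28 to 269.5 and 0 to 52.1 in MNEB at 1 and 16 wkpp, and up to 9.91 in SNEB libraries. *KRT14*, *KRT85* and *KRT31* were at 0 in all libraries of SNEB at 1 wkpp, and the part of this list in the levels of *MMP15* was not tested. *MMP16* held 1500.3, 1947 and 1285 in prepartum libraries. It stood at 212, 445 and 414 in MNEB at 1 wkpp, at 491, 1179 and 390.2 in SNEB at 1 wkpp and at 1099, 993 and 1626 in SNEB at 16 wkpp. In SNEB at 1 wkpp the high library was b, and library c of SNEB at 16 wkpp lay in the prepartum range. Prepartum over MNEB at 1 wkpp had a log2 fold change of 2.30 (SE 0.31), with adjusted p = 6.18e-04 on exons and 0.0152 on the whole gene. Only 13% of the reads on *MMP16* fell on exons, so its whole gene value rests mostly on intronic reads.

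Several of the other MMPs had few reads. The collagenases *MMP1* and *MMP13*, the stromelysin *MMP3*, the matrilysin *MMP7* and the enamel protease *MMP20*, which was named after its values were seen, had 12, 8, 17, 6 and 19 exonic reads over all 15 libraries. None of these 5 reached the mean normalised count of 5 needed for a test in a comparison with all libraries. The gelatinase *MMP9*, best known from neutrophils and macrophages, had 236 exonic reads in all, of which 85 were in library b and 37 in library a of SNEB at 1 wkpp and 52 in library c of SNEB at 16 wkpp. In MNEB libraries b at 1 wkpp and b and c at 16 wkpp it had 0 reads. The neutrophil list (5 of 6 markers in the tables) summed to 43.4 to 869 over all libraries. *MMP19* held 661 exonic normalised counts in library b of SNEB at 1 wkpp and 113 and 78.7 in a and c, and 549 in library a of MNEB at 1 wkpp against 32.6 and 122 in b and c. *MMP23B* held 294, 459 and 297 before calving and 80 to 342 later, where library c of SNEB at 16 wkpp reached 342. *MMP27* held 170.5, 44.8 and 162 in prepartum libraries and 4.19 to 72.6 later, so that prepartum library b overlapped the later ones. None of these 3 was called.

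*ADAMTS10*, which binds fibrillin microfibrils, was the only member called in 2 comparisons. It held 2805, 2841 and 3252 exonic normalised counts in MNEB libraries a, b and c at 1 wkpp and 1813.5, 1791.5 and 2246 at 16 wkpp. The prepartum libraries held 530.0, 738 and 779. SNEB held 884, 695 and 1120.2 at 1 wkpp and 603, 687 and 733 at 16 wkpp. Each MNEB library was thus above each of the other 9. The log2 fold change was -2.13 (SE 0.21) for prepartum over MNEB at 1 wkpp, with adjusted p = 1.46e-04 on exons and 0.00755 on the whole gene. For SNEB over MNEB at 16 wkpp it was -1.53 (SE 0.16), with 7.81e-04 and 0.00574. At 1 wkpp SNEB over MNEB gave -1.73 (SE 0.22), where the exonic adjusted p of 0.00708 passed and the whole gene value of 0.0464 did not. The exonic share of its reads also differed, at 85 and 82% in MNEB at 1 and 16 wkpp against 61.2 to 65.1% in the other groups. The 6 libraries high in *ADAMTS10* are the 6 shallow libraries with the high spike-in shares and muscle marker levels given above, and the part of these in the result was not tested.

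*ADAMTS2*, which removes the amino-terminal propeptide of fibrillar procollagens, was called between prepartum and MNEB at 1 wkpp. The prepartum libraries held 4632, 5794 and 3918 exonic normalised counts and the MNEB libraries 817, 646 and 1078. Limma voom gave a log2 fold change of 2.53 (SE 0.25), with adjusted p = 1.43e-04 on exons and 0.00921 on the whole gene. Over SNEB at 1 wkpp, which shares the prepartum libraries, it was 1.48 (SE 0.43, adjusted p = 0.14). There the levels were 1304, 3622 and 1023, with library b near the prepartum range. At 16 wkpp SNEB held 2466, 2442 and 5696 and MNEB 1681, 865 and 1702.5, with a log2 fold change of 1.28 (SE 0.38, adjusted p = 0.0381). Its relatives with the same function had fewer reads. *ADAMTS3* held 30.4 to 232 over all libraries, with only 8% of its reads on exons. *ADAMTS14* held 24.1, 144 and 84.9 in MNEB at 1 wkpp and 6.75 to 57.1 elsewhere, and neither was called. Beside *ADAMTS2*, the fibroblast list summed to 313432 to 361062 in prepartum libraries and 36655 to 80475 in MNEB at 1 wkpp. The mast cell list summed to 2764 to 4407 and 249.7 to 439, and the endothelium list (5 of 5), which was higher in MNEB, to 19341 to 23528 and 29835 to 63542. None of these lists overlapped between the groups, and their part in the result was not tested. Without library a of MNEB the adjusted p of *ADAMTS2* on the whole gene was 0.0109, and *ADAMTS10* and *MMP16* were the members called (1.79% of all genes). Leaving out any 1 of the other 5 libraries, prepartum library b included, called 0 members and 0.00898 to 0.0448% of all genes, with adjusted p of up to 0.0685 for *ADAMTS2* and 0.0652 for *ADAMTS10*. With no filter on low counts *ADAMTS2* was not called (adjusted p = 0.0116).

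**Figure D4:**
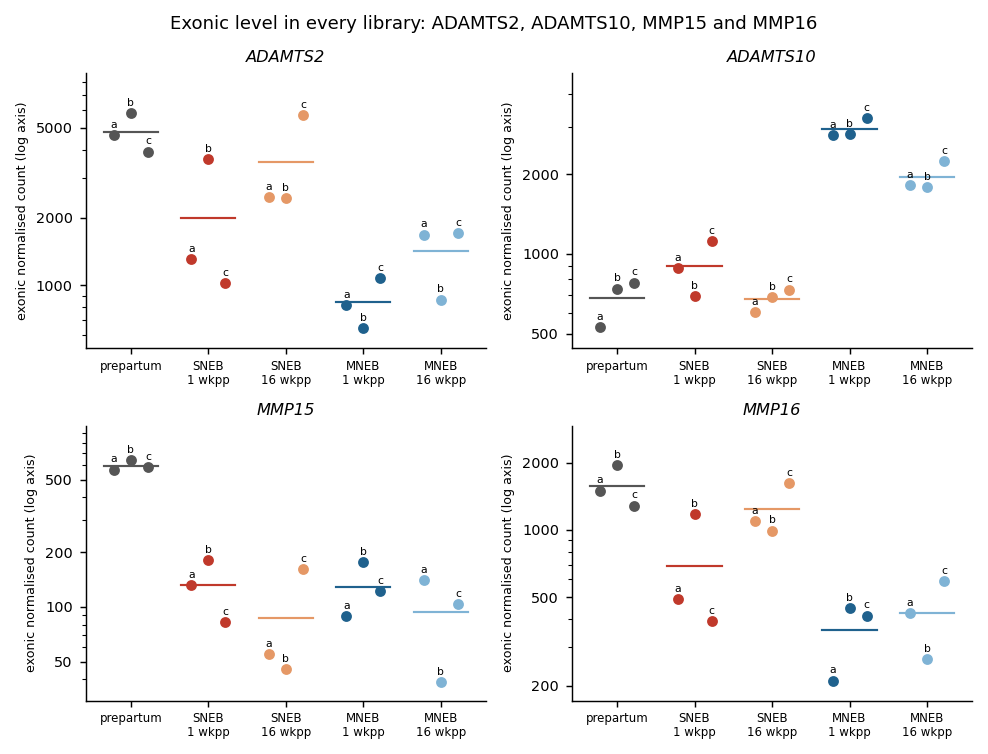
Exonic normalised counts (log axis) of ADAMTS2, ADAMTS10, MMP15 and MMP16 in each of the 15 libraries, by group, with library letters and the group mean as a line. All 6 MNEB libraries lie above the other 9 for ADAMTS10 (1791.5 to 3252 against 530.0 to 1120.2), and the prepartum libraries lie above all later libraries for MMP15 (569 to 640.3 against 38.7 to 181).

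Among the ADAMTS proteases that cut proteoglycans, single libraries at 1 wkpp stood far from the rest of their group. *ADAMTS4*, an aggrecan- and versican-cleaving enzyme, lies outside the rule for named genes and was chosen after its values were seen. It held 1621, 101 and 1781 exonic normalised counts in SNEB libraries a, b and c at 1 wkpp and 1513, 163 and 258 in those of MNEB. Prepartum libraries held 52.6, 107 and 79.7, and libraries at 16 wkpp 204 to 559. Library b of SNEB was thus in the prepartum range, while a and c were above every library of another group. *ADAMTS5*, which cuts the same substrates, held 3806, 1889 and 4865 in SNEB at 1 wkpp and 3505, 1042 and 790.0 in MNEB. Its prepartum libraries held 748, 1135 and 617, all below SNEB at 1 wkpp. *ADAMTS1*, also known to act on versican, held 3001, 646 and 2235 in SNEB at 1 wkpp, and 756 to 965 before calving.

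With all libraries, the log2 fold change of prepartum over SNEB at 1 wkpp was -3.11 (SE 1.27, adjusted p = 0.301) for *ADAMTS4* and -2.02 (SE 0.36, adjusted p = 0.0304) for *ADAMTS5*. Neither was called. Without library b of SNEB, it was -4.48 (SE 0.27) for *ADAMTS4*, with adjusted p = 1.41e-04 on exons and 0.00154 on the whole gene. For *ADAMTS5* it was -2.42 (SE 0.27), with adjusted p = 0.00162 and 0.00332. *MMP16* was also called without that library (1.82, SE 0.22, adjusted p = 0.00247 and 0.00644), where 0.751% of all genes were called. Library b was the SNEB library nearest the prepartum levels for each of these genes. Leaving it out thus favoured a call in advance, and these calls are no support. Leaving out any other library of either group called 0 members and 0% of all genes. Marker lists also separated prepartum from the 3 SNEB libraries at 1 wkpp without overlap. The fibroblast list summed to 313432 to 361062 and 79864 to 236123, the adipocyte list to 49279 to 59256 and 72178 to 88095, the macrophage list to 4996 to 7134 and 7619 to 11787, and the endothelium list to 19341 to 23528 and 29593 to 36740. The adipocyte sum does not stand for each marker: 3 of the 6 tested were higher in prepartum, with a median log2 fold change of -0.02. The part of these lists in these results was not tested. *ADAMTS9*, a versican-cleaving protease, held 2758, 2377 and 1226 in MNEB at 1 wkpp and 650.2, 850.0 and 789.8 before calving. These groups did not overlap on exons, but this separation did not hold on the whole gene. Library b of SNEB at 1 wkpp, at 674, lay in the prepartum range. Prepartum over MNEB at 1 wkpp had a log2 fold change of -1.40 (SE 0.30), with adjusted p = 0.00645 on exons and 0.376 on the whole gene, where 24.2% of its reads were exonic.

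**Figure D5:**
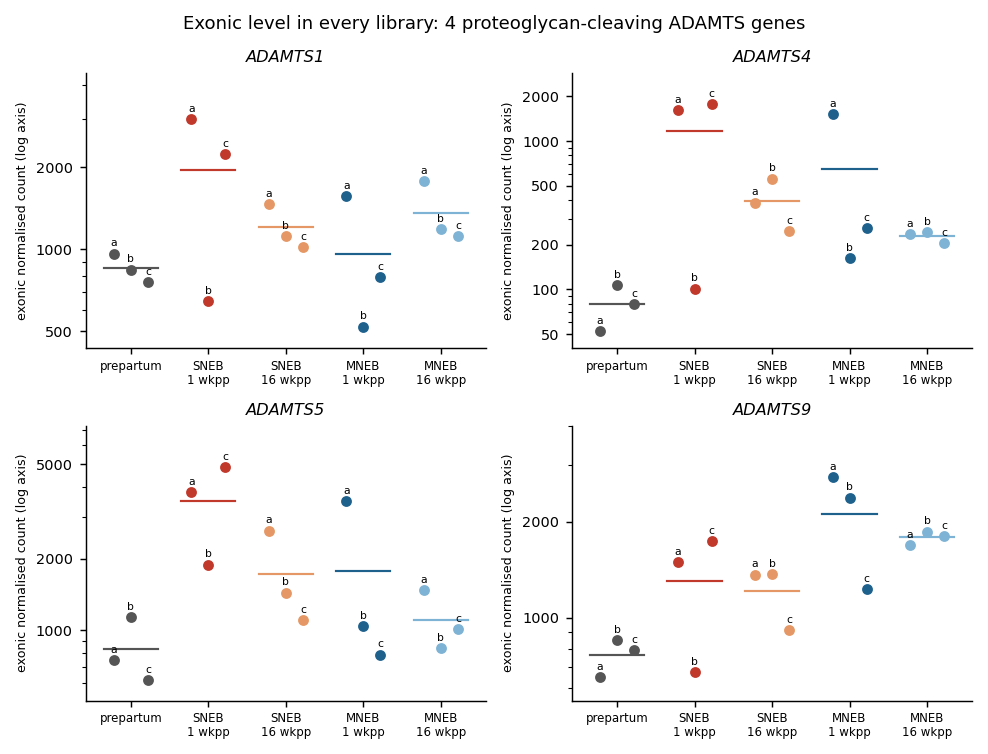
Exonic normalised counts (log axis) of ADAMTS1, ADAMTS4, ADAMTS5 and ADAMTS9 in each of the 15 libraries, by group, with library letters and the group mean as a line. At 1 wkpp SNEB library b (ADAMTS4 at 101) is far below a and c (1621 and 1781), and MNEB library a (1513) is far above b and c (163 and 258).

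In SNEB against MNEB at 1 wkpp the count of calls also turned on 1 library. Without library a of MNEB, 6 members passed the call rule, against 6.41% of all genes. One of them, *MMP20*, had only 6 and 4 exonic reads in the remaining MNEB libraries and 1 read in all of SNEB at 1 wkpp. It entered the test only through the group where it was high, so its call is no support. *MMP2* (log2 fold change 2.29, SE 0.23), *MMP14* (1.28, SE 0.21) and *TIMP3* (1.37, SE 0.19) were higher in SNEB, and *ADAMTS10* (-1.74, SE 0.25) and *ADAMTS14* (-2.90, SE 0.44) were lower. The adjusted p on exons lay between 0.0039 and 0.00682 for these 5. Library a was the MNEB library nearest the SNEB levels for each of these 5, so these calls are no support either. Leaving out any other library, library b of SNEB included, called 0 members and 0% of all genes.

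Of the remaining ADAMTS genes, *ADAMTS12* had overlapping levels in all 5 groups (705 to 1952), with 17.7% of its reads on exons. *ADAMTS19* held 259.5, 465 and 254 in prepartum libraries, 108, 176 and 159 in MNEB at 1 wkpp and 57, 80 and 103 in MNEB at 16 wkpp. The ADAMTS-like proteins lack the protease domain and bind to the matrix. *ADAMTSL4* held 2566, 2311 and 2212 in prepartum libraries and 762, 979.7 and 1126 in MNEB at 1 wkpp, with a log2 fold change of 1.34 (SE 0.21), and adjusted p = 0.00128 on exons and 0.0204 on the whole gene. *ADAMTSL2* was highest in MNEB at 1 wkpp (90.1, 106 and 292) and had its lowest mean in SNEB at 16 wkpp (7.3, 9.22 and 16.8). Its log2 fold change for SNEB over MNEB was -2.59 (SE 0.50, adjusted p = 0.0137) at 1 wkpp and -1.99 (SE 0.48, adjusted p = 0.0185) at 16 wkpp. The 6 members outside the rule for named genes that have not been described (*ADAMTS6*, *ADAMTS8*, *ADAMTS15*, *ADAMTS18*, *ADAMTS20* and *MMP12*, named after their values were seen) held between 0 and 540.0 exonic normalised counts, and none was called.

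Genes that work with these proteases were taken from 2 lists. Of 17 activators and other inhibitors tested, 3 were higher in prepartum than in MNEB at 1 wkpp and 0 lower, where 0.859% and 0.581% of all genes were called. They were *A2M* (log2 fold change 2.86, SE 0.28, adjusted p = 1.46e-04), a plasma inhibitor that traps proteases, *BSG* (2.50, SE 0.22, adjusted p = 9.10e-05), an inducer of MMPs, and *PCOLCE2* (2.66, SE 0.23, adjusted p = 7.87e-05), an enhancer of procollagen processing. At 16 wkpp *A2M* was the 1 gene called higher in SNEB than in MNEB (2.85, SE 0.30, adjusted p = 7.31e-04), against 1.01% of all genes, and 0 were lower, against 2.49%. The median log2 fold change of the list was 0.95 and 0.81 in these 2 comparisons, where all genes had 0.02 and 0.03. *PLAU*, the urokinase that generates plasmin, was not called at 16 wkpp (0.82, SE 0.26, adjusted p = 0.0504).

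Of 22 substrates tested between prepartum and MNEB at 1 wkpp, 3 were higher in prepartum (0.859% of all genes) and 0 lower (0.581%). They were the collagen-binding proteoglycans *DCN* (2.83, SE 0.30, adjusted p = 2.00e-04) and *FMOD* (3.52, SE 0.24, adjusted p = 2.31e-05) and the fibronectin gene *FN1* (4.21, SE 0.41, adjusted p = 1.31e-04). At 16 wkpp 3 of 21 substrates were higher in SNEB than in MNEB (1.01% of all genes) and 0 lower (2.49%), namely *DCN* (2.20, SE 0.34, adjusted p = 0.00268), *FMOD* (2.08, SE 0.23, adjusted p = 8.05e-04) and the basement membrane gene *NID1* (2.23, SE 0.19, adjusted p = 4.31e-04). *DCN* is also 1 of the 7 fibroblast markers. *VCAN*, the versican substrate of several ADAMTS members, had an exonic adjusted p of 9.44e-04 for prepartum over MNEB at 1 wkpp (2.43, SE 0.36) but 0.0139 on the whole gene. Neither list had a call in the other 4 comparisons or in the interaction. Between prepartum and MNEB at 1 wkpp, leaving out any 1 library other than MNEB library a left 0 calls in both lists, and 0.00898 to 0.0448% of all genes called. Without that library the activators and inhibitors had the same 3 calls, and 8 substrates were called higher, against 1.79% of all genes. At 16 wkpp *NID1* was called in all 6 fits that left out 1 library, where 0.322 to 1.04% of all genes were called. *A2M* lost its call only without MNEB library c, and *DCN* and *FMOD* were each called in 1 of these fits.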

How the data were processed

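RNA-seq of 15 libraries was analysed from 6 tables, one per comparison of 3 with 3 libraries. Per the labels and the study's methods, reads were processed by the authors with bcl2fastq 2.15.0, cutadapt 1.3, TopHat2 (bosTau8) and htseq-count, and compared by the authors with DESeq2. The deposited tables hold, from exons and from the whole gene, a mean count over 6 libraries divided by size factors, and the authors' fold changes, standard errors, test statistics and p-values. Only the means were used. No column belonged to other samples (0).

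Each table prints these means with 15 digits. Genes with a single read give the value of 1 read in each library. Each library enters 2 or 3 tables, and the 15 whole-number counts of a gene were solved from its 6 means (lattice reduction, sympy 1.14.0). This gave counts for 13979 of 13988 entries on exons and 13978 on whole genes, including all 35 members. Median-ratio size factors of the recovered counts differed from those in the tables by at most 0.072%. The groups of libraries follow from the tables that share them, and library letters carry no label. The test was limma 3.58.1 (R 4.3.3) voom on the 6 libraries compared, genes with a mean normalised count of at least 5, Benjamini-Hochberg adjustment over all genes and a call at adjusted p below 0.01 with the same sign in both analyses. Both steps were tested on simulated data. Whether reads were counted by strand is not given in the sources used here. Named were all TIMP genes, all members called and the 3 members of each role group with the highest mean exonic level. Others were named after their values were seen. Members, lists and tests were chosen with earlier results of these data known. Alternatives were other thresholds, scalings, pseudocounts (1 and 5), filters, a fit of all 15 libraries and leaving out each library. The study took 3 cows per energy balance group, and p-values measure the spread between these libraries. No promoter, protein or transcript sequence was used.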

Additional observations from a re-analysis of the deposited data

How the results depend on the processing

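Counts of members called kept within 1.5 times of the reported ones with limma on a mean-variance trend (pseudocount 1 or 5), with scaling to total counts and with the whole gene analysis alone, in all 6 comparisons and the interaction. Scaling to total counts moved the median of all genes by -0.17 (log2) for prepartum over MNEB at 1 wkpp and by -0.14 for prepartum over SNEB at 1 wkpp. On exons alone, prepartum against MNEB at 1 wkpp called 10 members (15.3% of all genes), prepartum against SNEB at 1 wkpp 1 (*MMP15*, 0.471%) and SNEB against MNEB at 1 wkpp 1 (*ADAMTS10*, 1.6%), and SNEB against MNEB at 16 wkpp called 6 (9.95%). At an adjusted p below 0.05 the first 3 of these counts were 6, 1 and 1 (9.13%, 0.534% and 0.469% of all genes), and SNEB against MNEB at 16 wkpp called 7 (12.5% of all genes). Without a filter on low counts, more genes were tested, and prepartum against MNEB at 1 wkpp and SNEB against MNEB at 16 wkpp each called 1 member (*ADAMTS10*), against 0.491% and 2.05% of all genes. With all 15 libraries in 1 fit, SNEB against MNEB called 3 members at 1 wkpp (2.78% of all genes) and 2 at 16 wkpp (4.33%), where *MMP14* (adjusted p = 0.0137) and *TIMP2* (0.0105) missed the threshold. In that fit prepartum against MNEB at 1 wkpp called 3 members against 9.69% of all genes. The cause was not tested.

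Leaving out each library in turn gave 0 to 2 members for prepartum against MNEB at 1 wkpp (0.00898 to 1.79% of all genes), 0 to 3 for prepartum against SNEB at 1 wkpp (0 to 0.751%), 0 to 6 for SNEB against MNEB at 1 wkpp (0 to 6.41%, with *MMP20* among the 6 on too few reads to count as support) and 0 in each case for SNEB against MNEB at 16 wkpp (0.322 to 1.04%), with fewer samples per fit. The 4 members called at 16 wkpp kept their direction, with *MMP2* at 1.86 to 2.32, *MMP14* at 1.51 to 2.05, *TIMP2* at 1.16 to 1.47 and *ADAMTS10* at -1.59 to -1.42, and the larger adjusted p of both analyses was 0.014 to 0.0337. *ADAMTS2* had 2.35 to 2.68 (0.0109 to 0.0685) and *ADAMTS10* -2.22 to -1.95 (0.00706 to 0.0652) for prepartum over MNEB at 1 wkpp. Of these 6 fits, only that without MNEB library a kept the call of *ADAMTS10*, and it also called *MMP16*. No called member reversed its direction under any alternative run. No paired analysis was possible because the library values solved from the pooled means carry no cow or replicate number. Depth limits what can be said of members with few reads, above all in the shallow MNEB libraries.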
